A study of Mus musculus with 3 samples.

Results

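The genes described here are 10 endothelial cell genes: Pecam1, Cdh5, Esam, Kdr, Flt1, Tie1, Tek, Nos3, Eng and Emcn. Each array probe was taken for one of them where its listed transcript belonged to that gene in the mouse RefSeq gene table, whatever its signal. This gave 12 probes for the 10 genes, 1 each except for Cdh5 and Flt1 with 2 each. The 10 genes, each read by its brighter probe, were among 22267 features tested, and all 12 probes were well above background on all 6 arrays. Male gonads were taken on embryonic day 14.5 from a mouse line labelled MCH, and their total RNA was hybridised to Agilent one-colour arrays with 2 arrays a genotype. The genotypes were Cyp26b1 knockout (Cyp26b1-/-/Stra8+/+), double knockout (Cyp26b1-/-/Stra8-/-) and wild type (Cyp26b1+/+/Stra8+/+). By these labels both mutant groups lacked Cyp26b1, and they differed from each other by Stra8. The duplicates were biological by the series' own account. The sources used here do not state how many embryos went into each array, and p-values reflect the spread between arrays alone.

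Endothelial cells line blood vessels. They hold together through junction proteins, and they grow and mature through receptor tyrosine kinases that bind vascular endothelial growth factors (the VEGF receptors) or angiopoietins (the Tie family). In the fetal testis, endothelial cells enter from the neighbouring mesonephros and take part in the partitioning of the testis cords and in the formation of an artery at the testis surface. Cyp26b1 degrades retinoic acid in the fetal testis, and Stra8 is a germ cell gene that retinoic acid induces and that meiosis in mice requires. Pecam1 is also a known surface protein of fetal germ cells, so it does not mark endothelium alone in this tissue.

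All values below are log2 signals relative to the 75th percentile of the same array, and changes are differences of genotype means ± SE from limma fitted over all features, with Benjamini-Hochberg adjusted p. Upper quartiles of the signal lay between 997 and 1536, and 61.9% to 68.6% of probes were well above background. Paired arrays of a genotype correlated at 0.994 to 0.996 across 24500 probes. Each genotype had a slide of its own, so slide and genotype cannot be told apart, and the Cyp26b1 knockout slide was scanned on another day than the other two. An exact permutation test of 2 arrays against 2 cannot go below p = 0.333, and none was used. The Cyp26b1 probe read 4.23 and 3.78 on the arrays with the label Cyp26b1 knockout, against 4.06 and 3.87 for the label double knockout and 3.99 and 3.79 for wild type. The Stra8 probe read 7.15 and 6.99 for the label Cyp26b1 knockout, 5.93 and 6.09 for double knockout and 3.69 and 2.37 for wild type. Neither signal was thus lost in the arrays labelled as knockouts of its gene, and the sources used here do not say whether the probes lie inside the deleted parts, so these probes do not check the labels.

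In Cyp26b1 knockout gonads, the endothelial cell genes did not move together. Against wild type, 6 of the 10 rose (Pecam1, Nos3, Tek, Esam, Tie1 and Eng), 3 fell (Cdh5 by its brighter probe, Kdr and Flt1) and Emcn did not pass the test. Of all features tested, 21.6% were called higher and 29.5% lower in this comparison. The share of members that rose stood above that of all features, and the share that fell was close to it. The 10 genes were chosen with earlier results of these data known, so these shares are a description and were not tested. The median change was 0.48 over the 10 genes and -0.09 over all features (log2). The 10 genes' summed linear signal, with Cdh5 taken by its brighter probe, was 15.7 to 16.1 in Cyp26b1 knockout and 15.6 to 16.8 in wild type. Emcn, the brightest of the 10, weighs most in that sum, and the other Cdh5 probe moved the opposite way. The sum therefore does not show whether the genes as a set were level. In whole gonads, fewer cells of a type and less RNA per cell cannot be told apart.

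**Figure D1:**
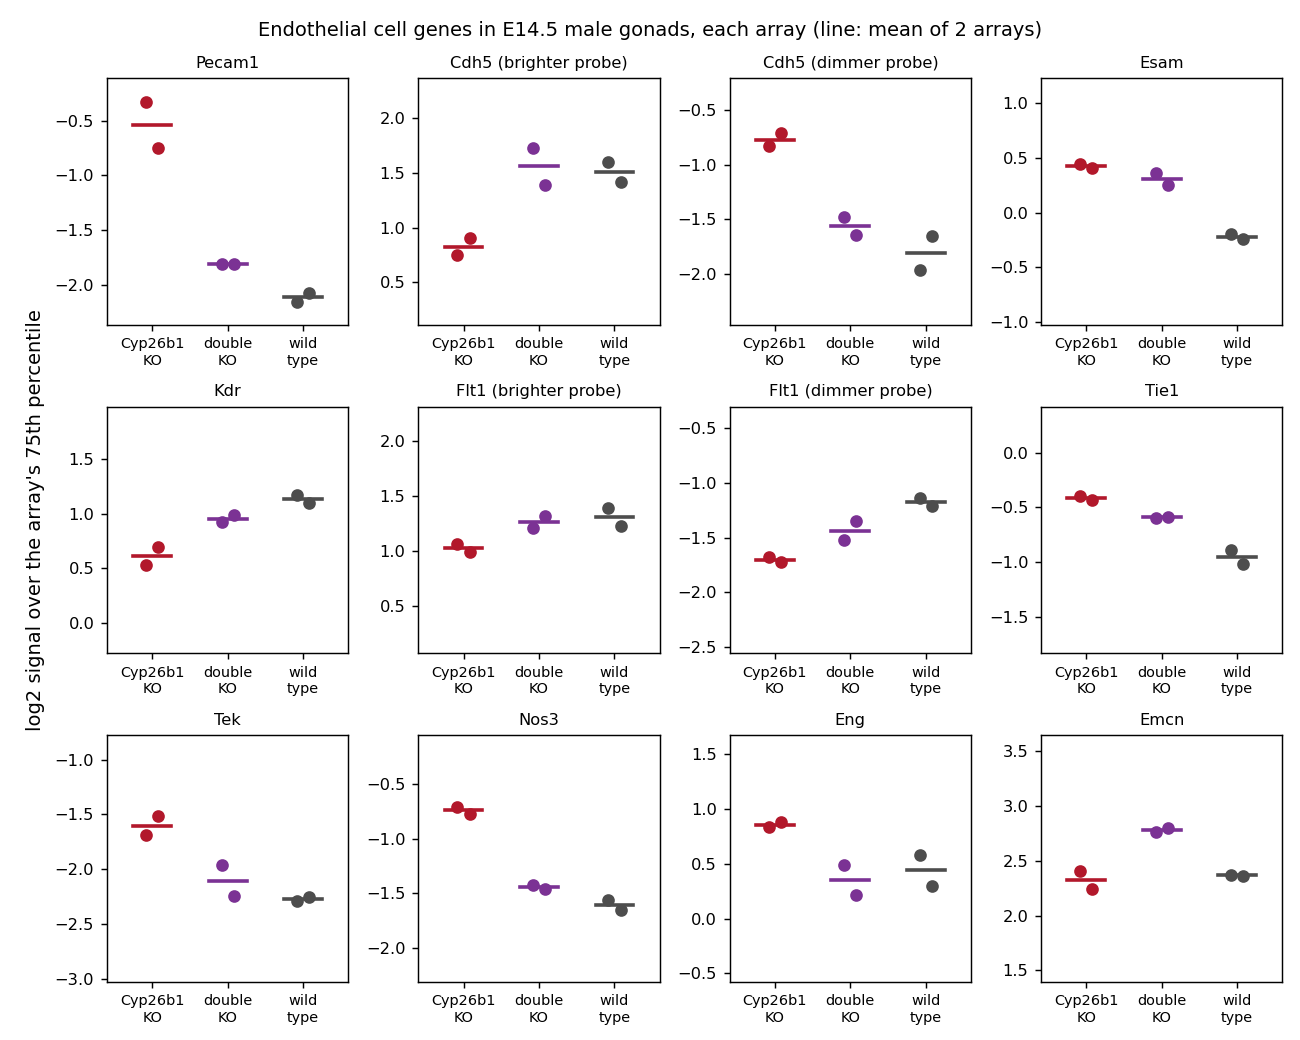
Log2 signal over the 75th percentile of the array (vertical axis) for each probe of the 10 endothelial cell genes, with 1 point per array, coloured by genotype. The 2 Pecam1 points of Cyp26b1 knockout (-0.33 and -0.75) lie above all others of that gene, and the 2 Cdh5 probes run in opposite directions.

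Pecam1, an adhesion receptor at contacts between endothelial cells, changed most among the 10 genes. It had log2 signals of -0.33 and -0.75 in Cyp26b1 knockout, -1.81 and -1.81 in double knockout and -2.15 and -2.08 in wild type. The Cyp26b1 knockout arrays lay above all other arrays, and the double knockout arrays lay close to wild type. The change against wild type was 1.58 ± 0.15 (2.99-fold, n = 2 arrays each, limma adjusted p = 0.000288). The Pecam1, Nos3 and Kdr probes were each printed as 10 spots, and their values are means over those spots.

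Esam, another adhesion protein of endothelial junctions and platelets, had log2 signals of 0.44 and 0.41 in Cyp26b1 knockout, 0.36 and 0.25 in double knockout and -0.20 and -0.24 in wild type. Both mutant genotypes lay above wild type with no overlap. The change was 0.64 ± 0.09 in Cyp26b1 knockout (limma adjusted p = 0.001132) and 0.53 ± 0.09 in double knockout (adjusted p = 0.01277), each against wild type. The call in double knockout was lost without double knockout replicate 1 (limma adjusted p = 0.0615), wild type replicate 1 (0.0757) or wild type replicate 2 (0.1017).

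Cdh5 encodes VE-cadherin, the adhesion molecule of endothelial adherens junctions, and its 2 probes disagreed. The brighter probe (A_52_P248604) read 0.75 and 0.90 in Cyp26b1 knockout, 1.73 and 1.39 in double knockout and 1.60 and 1.42 in wild type, a change of -0.69 ± 0.13 in Cyp26b1 knockout against wild type (limma adjusted p = 0.004379). The dimmer probe (A_51_P309056) read -0.83 and -0.71 in Cyp26b1 knockout, -1.48 and -1.64 in double knockout and -1.96 and -1.65 in wild type, a change of 1.04 ± 0.14 (limma adjusted p = 0.0008282). The array lists the same gene for both, and the probes' own sequences were not used here. Averaged over both probes the change was 0.18 (limma adjusted p = 0.2276). Cdh5 is therefore given no direction, which leaves 6 genes higher and 2 lower in Cyp26b1 knockout on the remaining 9.

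Kdr fell in Cyp26b1 knockout while both Tie receptors rose, and the other VEGF receptor, Flt1, was lower by a difference whose call on the brighter probe did not hold under many alternatives. For these 4 genes the 250 bases before the start listed in a RefSeq promoter table (GRCm38.p6) are printed, so that the promoters of the receptors that fell can be set beside those of the receptors that rose. Capitals mark CCGGAA or CAGGAA, core sequences of the kind that ETS transcription factors bind, and GGGCGG, the GC box, on either strand. No marked base belonged to more than 1 motif. The listed start of Tie1 is the outer end of the annotated gene, whereas those of Kdr, Flt1 and Tek lie inside the widest annotated span of the gene, so that the Kdr and Flt1 windows and most of the Tek window lie within it. Kdr lies at chr5:75978456-75978705 (minus strand), Flt1 at chr5:147726012-147726261 (minus strand), Tie1 at chr4:118489850-118490099 (minus strand) and Tek at chr4:94739039-94739288 (plus strand).
Kdr: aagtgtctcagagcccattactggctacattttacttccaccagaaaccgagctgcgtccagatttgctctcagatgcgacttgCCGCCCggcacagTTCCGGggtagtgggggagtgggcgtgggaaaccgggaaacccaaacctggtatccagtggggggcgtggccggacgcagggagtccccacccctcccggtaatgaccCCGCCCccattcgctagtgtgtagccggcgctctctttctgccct
Flt1: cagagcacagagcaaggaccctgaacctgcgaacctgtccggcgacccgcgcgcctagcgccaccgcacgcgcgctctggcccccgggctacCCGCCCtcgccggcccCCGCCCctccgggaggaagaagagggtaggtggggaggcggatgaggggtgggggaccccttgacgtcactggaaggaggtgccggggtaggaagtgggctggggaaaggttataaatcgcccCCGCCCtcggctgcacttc
Tie1: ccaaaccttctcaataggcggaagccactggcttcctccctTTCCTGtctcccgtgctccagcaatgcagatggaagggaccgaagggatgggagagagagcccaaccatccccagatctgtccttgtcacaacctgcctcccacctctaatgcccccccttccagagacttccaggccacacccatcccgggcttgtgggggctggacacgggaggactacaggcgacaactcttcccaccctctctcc
Tek: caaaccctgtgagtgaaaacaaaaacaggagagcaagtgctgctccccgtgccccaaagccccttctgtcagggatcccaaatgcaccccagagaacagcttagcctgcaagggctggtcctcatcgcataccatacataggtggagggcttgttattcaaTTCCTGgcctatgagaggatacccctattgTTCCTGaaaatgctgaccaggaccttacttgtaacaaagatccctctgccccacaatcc
The Kdr window held 1 CCGGAA and 2 GGGCGG, and the Flt1 window held 3 GGGCGG and neither CCGGAA nor CAGGAA. Only these exact letters were searched, so other GGAA sequences in the windows, as in that of Flt1, were neither marked nor counted. The Tek window held 2 CAGGAA and the Tie1 window 1, and neither held GGGCGG. Among all 32851 promoter windows of 250 bases in the RefSeq table, 12.0% held CCGGAA, 25.7% held CAGGAA and 32.7% held GGGCGG. A direct repeat of AGGTCA with 5 bases between the copies, a classical retinoic acid response element, was found in none of the 4 windows and in 3 of all windows, and the GATA-type sequence AGATAA, present in 9.99% of all windows, was also found in none of the 4. GC content was 61.6% for Kdr, 70.4% for Flt1, 60.4% for Tie1 and 51.2% for Tek, against a median of 52.4% over all windows. The promoter table also held windows for Emcn and Eng. Emcn, not called in Cyp26b1 knockout against wild type, had the same counts of the marked motifs as Tek. Eng, which rose there with a call lost under several alternatives, held none of these motifs. The split among the 4 receptors thus did not extend to Emcn and Eng. These are matches of letters only, and a link between motifs and changes was not tested.

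Kdr encodes VEGF receptor 2, the main signalling receptor for VEGF-A on endothelium. It read 0.53 and 0.70 in Cyp26b1 knockout, 0.92 and 0.99 in double knockout and 1.17 and 1.10 in wild type. The 3 genotypes did not overlap, with Cyp26b1 knockout lowest and wild type highest. The change in Cyp26b1 knockout against wild type was -0.52 ± 0.09 (limma adjusted p = 0.003369).

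Flt1 encodes VEGF receptor 1, which binds VEGF-A tightly and limits its access to Kdr. Its brighter probe read 1.06 and 0.99 in Cyp26b1 knockout, 1.21 and 1.31 in double knockout and 1.39 and 1.22 in wild type. Its dimmer probe read -1.68 and -1.73 in Cyp26b1 knockout, -1.53 and -1.35 in double knockout and -1.14 and -1.21 in wild type. Both probes were lowest in Cyp26b1 knockout, by -0.28 ± 0.09 (limma adjusted p = 0.04127) and -0.53 ± 0.11 (limma adjusted p = 0.006479) against wild type. The call on the brighter probe was lost when any 1 of the 6 arrays was left out (0.0522 at the lowest, without double knockout replicate 2, and 0.2343 at the highest, without wild type replicate 1). It was also lost with no filter on dim probes (0.0531), with quantile normalization (0.0717), without the intensity trend (0.0851), with only these 2 genotypes fitted (0.0523) and on the scaling of the deposited table, where the change was -0.18 (0.1576).

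Tie1, an orphan receptor that modulates signalling through Tek, read -0.40 and -0.43 in Cyp26b1 knockout, -0.59 and -0.58 in double knockout and -0.89 and -1.02 in wild type. The genotypes did not overlap, with Cyp26b1 knockout highest. The change in Cyp26b1 knockout against wild type was 0.54 ± 0.10 (limma adjusted p = 0.003528), and that in double knockout was 0.37 (limma adjusted p = 0.05523).

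Tek encodes Tie2, the receptor for angiopoietins. It read -1.69 and -1.52 in Cyp26b1 knockout, -1.96 and -2.25 in double knockout and -2.29 and -2.26 in wild type. The Cyp26b1 knockout arrays lay above all others, and 1 double knockout array was at the wild type level. The change in Cyp26b1 knockout against wild type was 0.67 ± 0.14 (limma adjusted p = 0.007133).

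Nos3, the endothelial nitric oxide synthase, read -0.71 and -0.77 in Cyp26b1 knockout, -1.42 and -1.46 in double knockout and -1.56 and -1.66 in wild type. Cyp26b1 knockout stood apart from both other genotypes, by 0.87 ± 0.11 against wild type (limma adjusted p = 0.0006776). Eng, a co-receptor for ligands of the TGF-beta family, read 0.84 and 0.88 in Cyp26b1 knockout, 0.49 and 0.22 in double knockout and 0.59 and 0.30 in wild type. Its double knockout and wild type arrays overlapped. The Eng change of 0.42 ± 0.13 in Cyp26b1 knockout (limma adjusted p = 0.03253) was no longer called without Cyp26b1 knockout replicate 1 (0.0839), Cyp26b1 knockout replicate 2 (0.109) or wild type replicate 2 (0.1968, change 0.27), nor with no filter on dim probes (0.0564) or without the intensity trend (0.0698).

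Emcn encodes endomucin, a sialomucin of venous and capillary endothelium. It read 2.41 and 2.24 in Cyp26b1 knockout, 2.77 and 2.80 in double knockout and 2.37 and 2.36 in wild type. The wild type arrays fell within the range of the Cyp26b1 knockout arrays, with a difference of -0.04 ± 0.09 (limma adjusted p = 0.695), and the double knockout arrays were above both. Emcn was thus the single member of the 10 that was highest in double knockout and called there against both other genotypes.

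**Figure D2:**
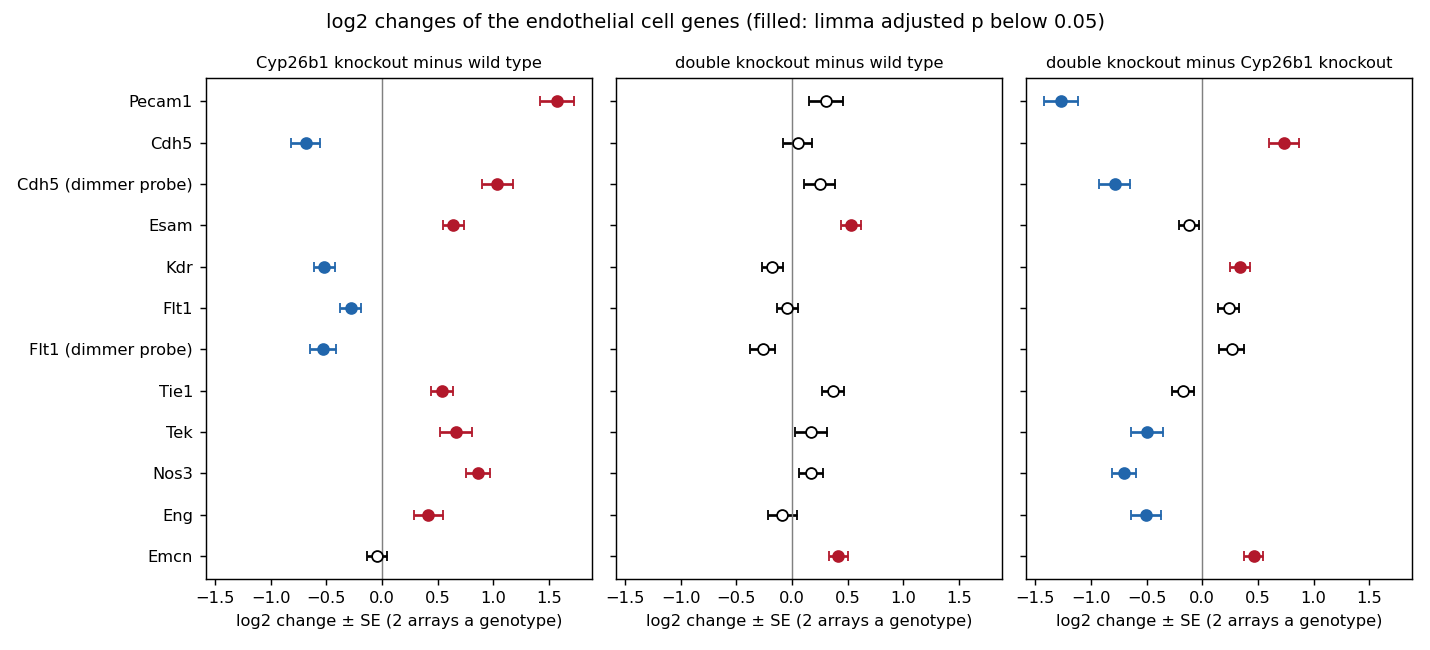
Log2 change ± SE (horizontal axis) of each probe of the 10 endothelial cell genes in the 3 comparisons, from limma over 2 arrays a genotype. In Cyp26b1 knockout minus wild type, Pecam1 (1.58) and Nos3 (0.87) lie right of 0 and Kdr (-0.52) and Flt1 lie left of it, while in double knockout minus wild type most probes lie near 0.

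In double knockout gonads, 8 of the 10 genes did not pass the test against wild type. Esam rose by 0.53 and Emcn by 0.42 ± 0.09 (limma adjusted p = 0.02479), and no gene fell. Of all features, 5.23% were called higher and 6.55% lower in this comparison. The median change was 0.17 over the 10 genes and -0.02 over all features (log2). The remaining differences ran from -0.18 for Kdr (limma adjusted p = 0.2495) to 0.37 for Tie1, and included 0.31 for Pecam1 (0.2325), 0.17 for Nos3 (0.3415) and 0.17 for Tek (0.4783). The Emcn call was lost when either double knockout array or either wild type array was left out (0.0784 at the lowest, without double knockout replicate 1, and 0.1442 at the highest, without wild type replicate 2), and without the intensity trend (0.0694). The deposited value table used another scaling of the arrays, and on that scaling Esam rose by 0.33, Emcn was not called (0.22, 0.1061) and Kdr was called lower by 0.38 (log2, limma adjusted p = 0.02884). The summed signal of the 10 genes, in which Emcn weighs most, was 17.9 to 18.6 in double knockout and 15.6 to 16.8 in wild type.

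Double knockout and Cyp26b1 knockout differ by Stra8 according to their labels, and lay on slides scanned on different days. Their arrays also enter the other comparisons. Of the 10 genes, 4 were lower in double knockout (Pecam1, Nos3, Tek and Eng), 3 were higher (Cdh5 by its brighter probe, Emcn and Kdr) and 3 were not called (Esam, Tie1 and Flt1). Of all features, 24.9% were called higher and 18.0% lower. The median change was -0.15 over the 10 genes and 0.09 over all features (log2). Pecam1 was lower by -1.27 ± 0.15 (limma adjusted p = 0.001086) and Nos3 by -0.70 ± 0.11 (0.002386). Emcn was higher by 0.46 ± 0.09 (limma adjusted p = 0.005263).

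The smaller differences between double knockout and Cyp26b1 knockout rested on few arrays. Tek differed by -0.50 ± 0.14 (limma adjusted p = 0.02773), and lost its call without Cyp26b1 knockout replicate 2 (0.1135), double knockout replicate 2 (0.1385) or either wild type array (0.0524 and 0.0519), and with quantile normalization (0.0629). Eng differed by -0.51 ± 0.13 (limma adjusted p = 0.01928), and lost its call without Cyp26b1 knockout replicate 1 (0.0576), replicate 2 (0.0743) or double knockout replicate 2 (0.0976). Kdr differed by 0.34 ± 0.09 (limma adjusted p = 0.02365), and lost its call without Cyp26b1 knockout replicate 1 (0.0923), double knockout replicate 1 (0.0588) or replicate 2 (0.1036), with quantile normalization (0.0545) and without the intensity trend (0.0548). The Cdh5 probes again disagreed, with 0.74 ± 0.13 for the brighter (limma adjusted p = 0.004528) and -0.79 ± 0.14 for the dimmer (0.003606). On the scaling of the deposited table, Esam (-0.42, limma adjusted p = 0.008547) and Tie1 (-0.48, 0.00746) were also lower in double knockout and neither Kdr (0.04, 0.7799) nor Emcn (0.16, 0.1753) was called, so 1 gene was higher and 6 were lower. There Tek was lower by -0.80 and Eng by -0.81, and the brighter Cdh5 probe was higher by 0.43. Cdh5 by that probe was the 1 gene higher, whereas its dimmer probe was lower by -1.09 in the deposited values. With Cdh5 given no direction, every gene called on that scaling was thus lower, unlike on the main scaling.

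Other genes of the vasculature also moved in both directions in Cyp26b1 knockout. Of 33 tested among 34 further endothelial genes, 9 rose and 8 fell against wild type, with a median of 0.08. These counts, and those of the ligands and transcription factors that follow, were close to the shares of all features (21.6% higher and 29.5% lower) and single out none of these lists. Fabp4, a fatty acid carrier of capillary endothelium and fat cells, rose by 4.60 ± 0.11 (limma adjusted p = 8.807e-06). Esm1, a proteoglycan secreted by endothelium, rose by 1.13 ± 0.21 (limma adjusted p = 0.003749), and Adgrl4, an adhesion G protein-coupled receptor, by 0.74 ± 0.18 (0.01054). Vwf, the von Willebrand factor of blood clotting, fell by 2.23 ± 0.15 (limma adjusted p = 9.814e-05). S1pr1, a receptor for sphingosine-1-phosphate, fell by 1.34 ± 0.15 (0.0005028 in the same fit), and Clec14a, a lectin-domain membrane protein, fell by 0.79 ± 0.16 (0.005537; -0.50 with normexp background correction). Vcam1, a leukocyte adhesion molecule, fell by 1.54 on its brighter probe (limma adjusted p = 0.0002221), and its other probe read 0.58 (0.2304). The mean of both Vcam1 probes gave -0.48 (limma adjusted p = 0.0511). The Adgrl4 call was lost without wild type replicate 2 (limma adjusted p = 0.0756).

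Among 14 angiogenic ligands and co-receptors tested of 17, 4 rose and 4 fell in Cyp26b1 knockout, with a median of -0.05. Nrp2, a co-receptor for VEGF-C, rose by 0.76 ± 0.08 (limma adjusted p = 0.0004251). Vegfd, a ligand of Flt4, fell by 1.27 ± 0.11 (limma adjusted p = 0.0002341), and Hif1a, the oxygen-regulated transcription factor, fell by 0.66 ± 0.10 (0.001388). Angpt1, the activating ligand of Tek, fell by 1.03 ± 0.25 (limma adjusted p = 0.01207). It was well above background on 1 of the 2 Cyp26b1 knockout arrays, and its call was lost without wild type replicate 2 (0.0872). With normexp background correction the Angpt1 change was -0.04 (adjusted p = 0.7854).

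Of 19 endothelial transcription factors, 3 rose and 6 fell in Cyp26b1 knockout, with a median of 0.01. Lmo2, a blood and vessel co-factor, rose by 1.78 ± 0.14 (limma adjusted p = 0.000162). Klf4, a factor responsive to blood flow, fell by 0.85 ± 0.10 (limma adjusted p = 0.0004737). Ets1, a founding member of the ETS family, fell by 0.85 on its brightest probe (limma adjusted p = 0.0007302), and neither of its other 2 probes was called. Etv2, an early endothelial ETS factor, fell by 1.68 ± 0.42 (limma adjusted p = 0.01266) with 1 of 2 Cyp26b1 knockout arrays well above background, and lost its call without wild type replicate 2 (0.0838). The Etv2 change was -1.06 without Cyp26b1 knockout replicate 2 and -0.43 with normexp background correction. Hhex, a homeobox factor, rose by 0.34 on its brighter probe (limma adjusted p = 0.04662) and by 2.42 on the other (0.0004612). The call on the brighter Hhex probe was lost without Cyp26b1 knockout replicate 1 (0.1997) or either wild type array (0.1071 and 0.192), and with quantile normalization (0.0574), median scaling (0.0654) or all probes kept (0.0664), and without the intensity trend (0.0803).

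Of 14 arterial and Notch genes, 5 rose and 5 fell in Cyp26b1 knockout (all features 21.6% and 29.5%), with a median of 0.25. Dll4, the Notch ligand of arterial and tip cells, rose by 1.38 ± 0.16 (limma adjusted p = 0.0004796). Gja5, an arterial gap junction protein, rose by 1.05 ± 0.19 on its brighter probe (0.003543) and was not called on the other (0.39, 0.2088). The Notch ligands Jag2 and Dll1 rose by 0.80 ± 0.12 (limma adjusted p = 0.001523) and 0.84 ± 0.14 (0.002049). Efnb2, the arterial ephrin ligand, fell by 0.61 on its brighter probe (limma adjusted p = 0.001362) and read -0.13 on the other (0.6001). Of 5 venous and lymphatic genes tested of 6, 3 rose and 1 fell, beside the same shares of all features, with a median of 0.83. The lymphatic genes Lyve1, Flt4 (VEGF receptor 3) and Pdpn rose by 1.08 ± 0.20 (limma adjusted p = 0.004065), 0.98 ± 0.18 (0.003551) and 0.83 ± 0.21 (0.01352). Prox1, a lymphatic gene of the same list, did not pass the background filter and was not tested. The Pdpn call was lost without Cyp26b1 knockout replicate 1 (0.0751) or wild type replicate 1 (0.0872).

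**Figure D3:**
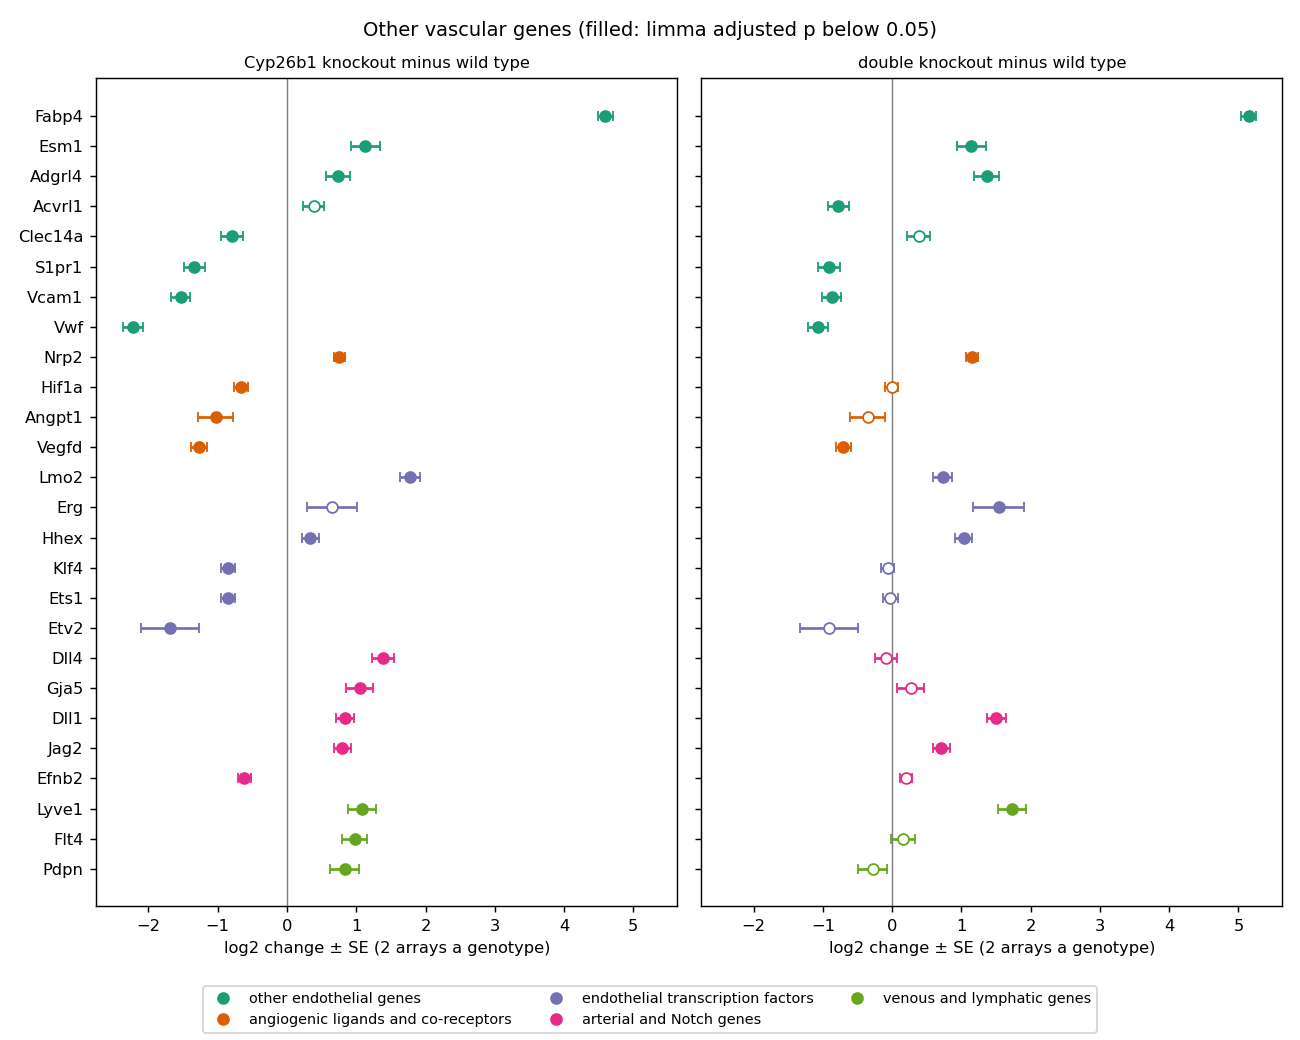
Log2 change ± SE (horizontal axis) of named vascular genes outside the 10, in Cyp26b1 knockout minus wild type (left) and double knockout minus wild type (right), coloured by gene group, with filled points where limma's adjusted p was below 0.05. Fabp4 lies far to the right in both panels (4.60 and 5.15), while Dll4, Klf4 and Ets1 lie near 0 in double knockout; the Erg probe was not well above background in wild type.

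In double knockout against wild type, the calls among the same lists were 6 higher and 4 lower of 33 endothelial genes, 3 and 1 of 14 ligands and co-receptors, 4 and 0 of 19 transcription factors, 2 and 0 of 14 arterial and Notch genes, and 1 and 0 of 5 venous and lymphatic genes, beside 5.23% higher and 6.55% lower of all features. Fabp4 rose by 5.15 ± 0.11 (limma adjusted p = 3.834e-06) and Lyve1 by 1.73 ± 0.20 (0.003563). Dll1 rose by 1.50 ± 0.14 (0.001586 in the same fit), Adgrl4 by 1.36 ± 0.18 (0.004918), Nrp2 by 1.16 ± 0.08 (0.0006581) and Hhex by 1.03 ± 0.12 (0.003284). Vwf fell by 1.07 ± 0.15 (limma adjusted p = 0.005732). Changes of 1.15 for Esm1, 0.73 for Lmo2, 0.71 for Jag2, -0.91 for S1pr1, -0.78 for Acvrl1, -0.70 for Vegfd and -0.87 for Vcam1 were called on all arrays. Each of these calls was lost without wild type replicate 1 (adjusted p from 0.0549 to 0.1258), and all but that of Vcam1 also without wild type replicate 2 (0.0631 to 0.1138). Without double knockout replicate 1 the calls of Lmo2 (0.0784) and Jag2 (0.056) were lost too, and without double knockout replicate 2 those of Acvrl1 (0.0763) and Esm1 (0.0607). Erg, an ETS factor of endothelium, was not well above background in wild type and was at least 2.90-fold higher in double knockout (limma adjusted p = 0.03777), a call lost without double knockout replicate 2 (0.1391) or either wild type array (0.1399 and 0.1744), with no filter on dim probes (0.091) or without the intensity trend (0.0579). Dll4 (-0.09), Klf4 (-0.06), Ets1 (-0.02), Hif1a (-0.01), Flt4 (0.16), Gja5 (0.27), Efnb2 (0.20), Pdpn (-0.28), Clec14a (0.38), Angpt1 (-0.35) and Etv2 (-0.92) did not pass the test.

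Between double knockout and Cyp26b1 knockout, Dll4 was lower by -1.47 ± 0.16 (limma adjusted p = 0.0007467), Acvrl1, a receptor that acts with Eng, by -1.16 ± 0.15 (0.001322), Pdpn by -1.11 ± 0.21 (0.005493), Lmo2 by -1.05 ± 0.14 (0.001509) and Flt4 by -0.82 ± 0.18 (0.009702). Clec14a and Vwf were higher in double knockout, by 1.17 ± 0.16 (limma adjusted p = 0.001666) and 1.16 ± 0.15 (0.001252). Klf4 was higher by 0.79 (0.001102 in the same fit), Hif1a by 0.65 (0.002201), Vegfd by 0.57 (0.006811), Fabp4 by 0.55 (0.006111) and Nrp2 by 0.40 (0.007811). On the scaling of the deposited table Klf4 (0.49) and Hif1a (0.35) were still called, but Vegfd (0.27, limma adjusted p = 0.0947), Fabp4 (0.25, 0.0993) and Nrp2 (0.10, 0.3763) were not. The other 2 Fabp4 probes read 0.66 (limma adjusted p = 0.001885) and 0.03 (0.8987). The probes of Hhex (0.70 and -1.38), Vcam1 (0.66 and -1.02), Efnb2 (0.81 and -0.05) and Ets1 (0.83, 0.41 and -0.35) disagreed in direction. Differences of 0.66 for Dll1 (limma adjusted p = 0.007281), 0.66 for Lyve1 (0.03609), 0.62 for Adgrl4 (0.02505) and -0.78 for Gja5 (0.01522) were also called. The other probes of Gja5 (-0.47, limma adjusted p = 0.1487) and Lyve1 (0.06, 0.919) were not called. The Lyve1 call was lost without any 1 of 5 arrays (0.0595 to 0.1446), that of Adgrl4 without any 1 of the 4 arrays compared (0.0511 to 0.1071), and that of Gja5 without Cyp26b1 knockout replicate 1 (0.0673) or double knockout replicate 2 (0.0724). Without Cyp26b1 knockout replicate 1 the Lyve1 difference was 0.38. On the scaling of the deposited table neither Dll1 (0.36, limma adjusted p = 0.0649), Lyve1 (0.35, 0.1993) nor Adgrl4 (0.32, 0.1763) was called.

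Markers of the other cells of the gonad are given beside these values, and their part in them was not tested. Of 13 germ cell genes, 2 rose and 8 fell in Cyp26b1 knockout against wild type (all features 21.6% and 29.5%), with a median of -0.78. The summed germ cell signal was 63.9 to 78.5 in Cyp26b1 knockout, 88.8 to 100 in double knockout and 110 to 114 in wild type. Nanos2, a male germ cell RNA-binding protein, fell by 2.93 ± 0.26 in Cyp26b1 knockout (limma adjusted p = 0.0002221), Dnd1 by 2.01 ± 0.13 (0.0001071) and Mael by 1.07 ± 0.09 (0.0001997). Tdrd1, Nanos3 and Tfap2c fell by 2.01, 1.58 and 1.69, whereas Kit rose by 1.07 ± 0.13 (limma adjusted p = 0.0006323). In double knockout against wild type, 2 of the 13 rose and 4 fell (all features 5.23% and 6.55%). The 4 were Dnd1, Mael, Nanos2 and Tfap2c. The calls of Mael, Nanos2 and Tfap2c were lost with no filter on dim probes (limma adjusted p = 0.0522, 0.1043 and 0.0796). They were also lost without the intensity trend (0.0654, 0.0952 and 0.0618). Without wild type replicate 2 the 4 changes were -0.85, -0.43, -0.88 and -1.06. In double knockout against Cyp26b1 knockout, 7 of the 13 rose and none fell (all features 24.9% and 18.0%).

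Of 13 blood cell genes tested of 16, 3 rose and 2 fell in Cyp26b1 knockout (all features 21.6% and 29.5%), with summed signals of 161 to 185 in Cyp26b1 knockout, 204 to 214 in double knockout and 215 to 238 in wild type. Most of that sum is the haemoglobin gene Hba-a1, at 7.01 and 7.38 in Cyp26b1 knockout, 7.62 and 7.51 in double knockout and 7.71 and 7.54 in wild type (log2). It does not describe the other blood cell genes. Itga2b, an integrin of platelets and early blood cells, rose by 1.20 ± 0.21 (limma adjusted p = 0.002964), and the macrophage genes C1qa and Csf1r by 0.67 (0.004437) and 0.66 (0.005659). C1qb was also higher in Cyp26b1 knockout (-1.93 and -2.20) than in wild type (-2.41 and -2.42). Adgre1 overlapped (-1.81 and -1.93 against -1.91 and -1.84), and Ptprc was lower (-4.13 and -4.04 against -3.79 and -3.76). The macrophage and leukocyte genes thus had no single direction. Of 12 mural cell genes, 3 rose and 2 fell, again near or below those shares, and the summed signal overlapped between genotypes (66.3 to 74.9 in Cyp26b1 knockout, 66.9 to 75.6 in double knockout and 65.8 to 71.3 in wild type). Des, the intermediate filament desmin, rose by 1.10 ± 0.14 (limma adjusted p = 0.0007092) and Myh11, smooth muscle myosin, by 0.95 ± 0.25 (0.01651). Anpep, an aminopeptidase of pericytes, fell by 0.41 ± 0.12 (limma adjusted p = 0.02443). That call was lost without Cyp26b1 knockout replicate 2 (change -0.31) or either wild type array (-0.47 and -0.35). It was also lost on the scaling of the deposited table (limma adjusted p = 0.0668) and without the intensity trend (0.0548). The Myh11 call was lost without wild type replicate 1 (limma adjusted p = 0.0514) or replicate 2 (0.0845), and the change was 0.51 without Cyp26b1 knockout replicate 2. Of 14 mesonephros genes, 2 rose and 5 fell, counts near the same shares of all features (21.6% and 29.5%). Their sums were 17.1 to 20.4 in Cyp26b1 knockout, 18.8 to 20.0 in double knockout and 21.8 to 22.6 in wild type. Among them Upk3b, a gene of the mesothelium, rose by 0.97 ± 0.14 (limma adjusted p = 0.001315) and Krt8, an epithelial keratin, fell by 0.67 ± 0.13 (0.004476). Osr1 fell by 0.70 on its brighter probe (limma adjusted p = 0.003999) and read 0.04 on the other (0.8556). Cdh16 differed widely within Cyp26b1 knockout (-1.64 and -3.69) and within wild type (-4.01 and -1.69), and read -3.61 and -3.96 in double knockout. The reason for that spread between arrays was not tested. Lhx1, a nephric duct and tubule transcription factor, read -2.78 and -3.41 in Cyp26b1 knockout, -4.25 and -4.23 in double knockout and -2.39 and -2.21 in wild type. It fell by 1.94 ± 0.22 in double knockout against wild type (limma adjusted p = 0.003348), was lower by -1.14 ± 0.22 in double knockout against Cyp26b1 knockout (0.006437), and fell by 0.80 in Cyp26b1 knockout against wild type (0.02064). That last call was lost without Cyp26b1 knockout replicate 2 (limma adjusted p = 0.0785, change -0.48), wild type replicate 1 (0.0623) or replicate 2 (0.115). Pax2, another nephric gene, was well above background in Cyp26b1 knockout alone, at least 1.78-fold higher than in wild type (limma adjusted p = 0.04444) and, in double knockout, at least 1.51-fold lower than in Cyp26b1 knockout (0.02057). The first Pax2 call was lost without Cyp26b1 knockout replicate 1 (0.2094) or either wild type array (0.1352 and 0.146), and the second without Cyp26b1 knockout replicate 1 (0.1033) or double knockout replicate 1 (0.0672).

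**Figure D4:**
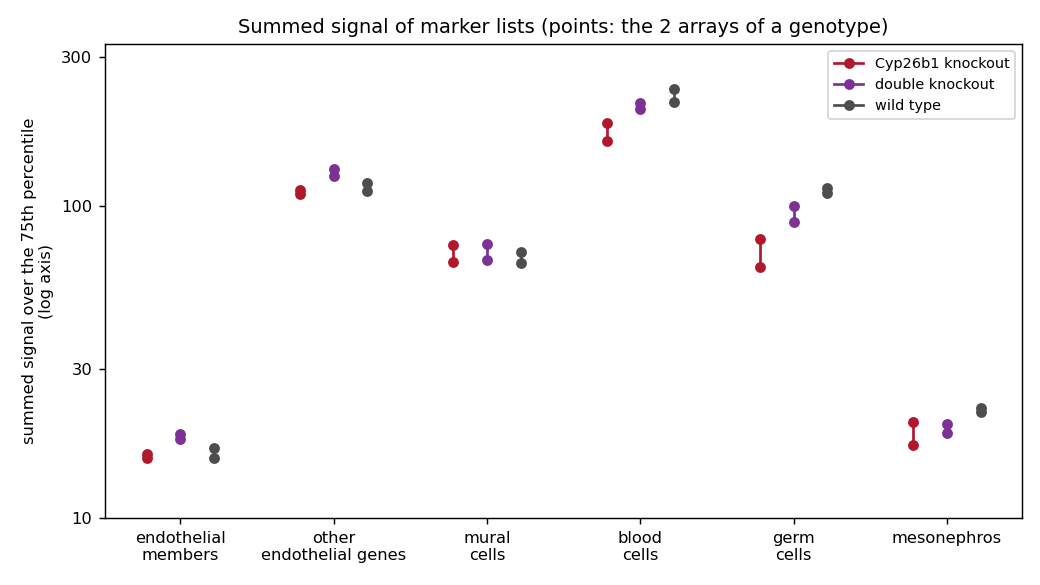
Summed linear signal over the 75th percentile of the array (vertical axis, logarithmic) for each gene list, with 1 point per array and a line joining the 2 arrays of a genotype. Each gene enters by its brightest probe, so bright genes weigh most in a sum. The germ cell sum is lowest in Cyp26b1 knockout (63.9 to 78.5) and highest in wild type (110 to 114), while the sum of the 10 endothelial cell genes is 15.7 to 16.1 in Cyp26b1 knockout, 17.9 to 18.6 in double knockout and 15.6 to 16.8 in wild type.

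Outside these lists, the genes whose 6 centred array values lay nearest to the mean centred profile of the 10 endothelial cell genes were Psmd4, Gmppb, Sidt2, Dhrs4 and Hes6, out of 13146 genes searched. Their root mean square distances from that profile were 0.01 to 0.03 (log2), over 6 arrays of 3 genotypes. The profile averages members that moved in opposite directions. On Cyp26b1 knockout replicate 1 their centred values ran from -0.55 (Cdh5, brighter probe) to 1.16 (Pecam1) around a mean of 0.17. Nearness to the mean is therefore not likeness to any single member.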

How the data were processed

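Male embryonic gonad RNA was read on 6 one-colour Agilent arrays. The authors' scanner files, 1 for each array, hold linear spot intensities. The submitters' processing notes name Agilent Feature Extraction 9.5, and it is version 9.5.3.1 per the file headers. A table of 3 columns, 1 for each genotype, was also deposited, and its numbers follow a linear ratio. Its log2 differences correlated at 0.999993 to 0.999998 with those computed here over 24500 probes, and were shifted by 0.10, -0.20 and -0.30 for Cyp26b1 knockout against wild type, double knockout against wild type and double knockout against Cyp26b1 knockout, so its columns run the same way on a shifted scale, which turned the sign of small changes such as those of Nos3 and Tek in double knockout against wild type.

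Control spots and spots marked as outliers were left out, and log2 of the processed signal was taken minus each array's 75th percentile. Spots of a probe were averaged, and a gene was read by its brightest probe. Probes were named through the RefSeq gene table by unversioned accession: of 41174 probes, 23374 had 1 symbol, 0 several and 17800 none. Features were tested where the pair of arrays of any genotype was well above background (22267, of which 13295 had a symbol) with limma 3.58.1 (lmFit and eBayes with an intensity trend) in R 4.3.3 over all 6 arrays, two-sided, with Benjamini-Hochberg adjustment and a threshold of 0.05. The number of arrays limits the precision. The script was also tested on simulated data. Normexp background correction was run on the median signal, since the files have no mean signal, and without outlier-marked spots it left 20203 features. Other alternatives were quantile and median scaling, no filter, the authors' scaling, other probe choices, no trend, each pair of genotypes fitted alone, a replicate block, and leaving out each array. Every probe as a feature of its own was added after seeing the data.

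The 10 genes and the companion lists were chosen with earlier results of these data known, so counts are read beside the share of all features called and no list has a test. Besides the 10, the text names from each companion list the 3 genes with the smallest adjusted p in Cyp26b1 knockout against wild type and those called at 2-fold or more in any comparison, and the 5 genes nearest in profile. Dazl, Ddx4, Pou5f1, Dppa3, Hba-a1, C1qb, Adgre1, Ptprc, Cdh16 and Prox1 are named outside that rule.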

Additional observations from a re-analysis of the deposited data

How the results depend on the processing

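With 2 arrays a genotype, 1 slide each, neither a slide block nor a comparison within slides could be fitted. In Cyp26b1 knockout against wild type, 5 to 6 of the 10 genes were higher and 2 to 3 lower under the 16 alternatives in which the 10 genes were counted, which do not include the other Cdh5 probe (called higher), and the calls of Pecam1, Nos3, Esam, Kdr, Tie1 and Tek were kept in all of them. Cdh5 reversed there with the mean over probes (0.18) or the other probe (1.04), and in double knockout against Cyp26b1 knockout (-0.027 and -0.79). In that comparison the means over probes also reversed Hhex (-0.34) and Vcam1 (-0.18). In double knockout against wild type, the number of the 10 genes higher was 1 on the authors' scaling and 1 without the intensity trend (2 as reported), the number lower was 1 on the authors' scaling (0 as reported), and leaving out 1 array gave 0 to 2 higher. In double knockout against Cyp26b1 knockout, 1 gene was higher on the authors' scaling (3 as reported), and leaving out 1 array gave 2 to 3 higher and 2 to 4 lower (4 as reported). The authors' scaling moved the features called to 685 higher and 4442 lower in double knockout against wild type (1165 and 1458 as reported), to 2142 and 7409 in double knockout against Cyp26b1 knockout (5554 and 4019) and to 5804 and 5341 in Cyp26b1 knockout against wild type (4805 and 6569). It moved the median of the 10 genes to -0.03 in double knockout against wild type and -0.45 in double knockout against Cyp26b1 knockout; by construction it shifts every feature equally. Without the filter on dim probes, 728 features were higher and 812 lower in double knockout against wild type, and 10564 were higher in double knockout against Cyp26b1 knockout, where more features were tested. Leaving out 1 array gave 291 to 1300 features higher and 283 to 1592 lower in double knockout against wild type. The labels give no meaning to the array numbers, and deviations of same-numbered arrays from their genotype means correlated at 0.105, 0.196 and 0.113 in the 3 comparisons. With only 2 numbers this does not settle whether arrays are paired. With a replicate block, the paired fit gave 5026 higher and 7043 lower, 1345 and 1739, and 6028 and 4268 for the 3 comparisons, and changed no call of the 10 genes. The causes of the other changes were not tested.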
